A study of Mus musculus with 2 samples.

Results

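The genes described here encode the enzymes of glycolysis, gluconeogenesis, the pentose phosphate pathway and the citrate cycle, measured in TR1 cells (type 1 regulatory T cells, CD4 T cells that make IL-10) from mouse small intestine. The members were set by a list of 35 gene symbols; measured brightness served only to pick between several probe sets of a gene. A member counted as found when the annotation of the array gave a probe set (the group of short probes that reports 1 transcript) exactly that 1 symbol. This held for 32 of the 35, out of 19937 genes found in this way in all. Gpi1, Eno1 and G6pdx had no such probe set and were not analysed here.

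The study had 2 arrays, 1 per genotype. The wildtype array held TR1 cells of mice with an unaltered IL-10 receptor. The impaired array held TR1 cells of mice carrying CD4-DNIL-10R, a dominant-negative IL-10 receptor transgene; the construct's name places it under Cd4 control, and CD4 is also found on T cells other than TR1 cells. All mice had received 15 μg of anti-CD3 antibody (clone 2C11) in 2 intraperitoneal doses every other day, and tissue was taken 4 or 48 hours after the last dose; the labels used here do not say which of these times belongs to which array, how many mice were used or how old they were. The comparison asks which transcripts differ when TR1 cells cannot receive the IL-10 signal normally. With 1 array per genotype no difference has a replicate error, and none was tested. For the same reason genotype cannot be told apart from collection time, preparation or the content of other cells.

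Glycolysis splits glucose into pyruvate, which is turned into lactate or carried into mitochondria, where pyruvate dehydrogenase and the citrate cycle oxidise it. Gluconeogenesis runs the other way through a few enzymes of its own, and belongs to liver, kidney and the epithelium of the small intestine rather than to T cells. The pentose phosphate pathway branches off at glucose 6-phosphate and supplies NADPH and ribose. Activated effector T cells are known for high glucose use and lactate output, much of it under control of the transcription factors HIF-1 and MYC.

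The starts of 6 members are shown as examples of nearly equal and of unequal members: Ldha and Pgk1, known HIF-1 targets that were nearly equal on the arrays, Pgam1, the glycolytic member with the highest difference, and the 3 gluconeogenic genes Fbp1, Pck1 and G6pc. Each line gives the 160 bases before the transcription start listed by RefSeq on GRCm38.p6, 5′ to 3′ along the gene. For Ldha this is the first of 2 listed starts, and for G6pc the first of 6. Capitals mark, on either strand, the hypoxia response core (ACGTG or GCGTG), the E-box CACGTG bound by MYC, which contains the first of these cores, and the TATA box TATAAA.
Ldha (chr7:46845644-46845803, + strand): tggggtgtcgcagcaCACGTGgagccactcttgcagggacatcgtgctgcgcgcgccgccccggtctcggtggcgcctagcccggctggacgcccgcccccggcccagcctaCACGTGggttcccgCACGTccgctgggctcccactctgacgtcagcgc
Pgk1 (chrX:106186940-106187099, + strand): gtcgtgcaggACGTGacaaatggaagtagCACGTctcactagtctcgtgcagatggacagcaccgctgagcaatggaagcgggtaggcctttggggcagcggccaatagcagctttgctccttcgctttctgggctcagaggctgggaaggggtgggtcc
Pgam1 (chr19:41911711-41911870, + strand): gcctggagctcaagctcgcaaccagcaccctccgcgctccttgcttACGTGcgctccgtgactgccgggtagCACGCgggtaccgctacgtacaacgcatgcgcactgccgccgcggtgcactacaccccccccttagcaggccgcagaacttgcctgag
Fbp1 (chr13:62888283-62888442, - strand): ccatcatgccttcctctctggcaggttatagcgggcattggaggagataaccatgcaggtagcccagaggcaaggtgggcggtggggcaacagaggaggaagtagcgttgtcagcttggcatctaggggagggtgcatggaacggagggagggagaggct
Pck1 (chr2:173152913-173153072, + strand): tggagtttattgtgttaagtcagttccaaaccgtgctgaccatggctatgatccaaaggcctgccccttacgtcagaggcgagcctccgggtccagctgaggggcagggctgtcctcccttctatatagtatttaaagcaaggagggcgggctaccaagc
G6pc (chr11:101367556-101367715, + strand): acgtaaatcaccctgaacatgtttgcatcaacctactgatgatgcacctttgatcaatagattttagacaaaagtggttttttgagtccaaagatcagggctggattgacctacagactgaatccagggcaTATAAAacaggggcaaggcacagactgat

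In these windows Ldha held 2 E-boxes, starting 145 and 48 bases before its start, and a further hypoxia core 34 bases before it. Pgk1 held 2 hypoxia cores at 150 and 131 bases, and Pgam1 held 2 at 114 and 88 bases. Fbp1 and Pck1 held none of the motifs, and G6pc held a TATA box 29 bases before the first of its 6 listed starts. Over the 250 bases before the first listed start, 25 of the 34 members matched in the RefSeq table (73.5%) held a hypoxia core on either strand, against 38.6% of all 27025 promoters. The E-box was in 2 of 34 (5.88%) and in 6.05% of all promoters, and TATAAA in 1 of 34 and in 13.0%. A match describes the letters and is not a binding site, and the promoters compared were not matched for base composition.

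Values are log2 RMA expression (RMA is the method by which the probe signals were summarised), so a difference of 1 is a doubling. Differences are impaired minus wildtype. A gene was taken as measurable when its brighter array reached 6.91, the median over all probe sets, which is called the floor. Of the 32 members 26 passed it, as did 11125 of all genes. Hk3, Aldoc, Fbp1, Pck1, G6pc and Pdk4 did not. Levels of different genes come from different probes and are not compared with each other.

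None of the 26 members past the floor differed by 2-fold between the arrays, and 0 differed by 1.5-fold. Over all genes past the floor, 1.65% differed by at least 2-fold and 7.39% by at least 1.5-fold. At such shares a list of 26 holds few genes past either size, so nothing particular to the members is read from these counts of 0. The differences of the members ran from -0.28 to 0.55, and the middle 95% of all genes from -0.51 to 0.85. More members were brighter than dimmer in the impaired array, 17 against 9 (65.4% above 0, where 50.2% of all genes were), and their median was 0.13 against 0.00 for all genes. With the floor raised to 8.86 the median was 0.27 over 21 members and -0.05 over the 5949 genes left.

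**Figure D1:**
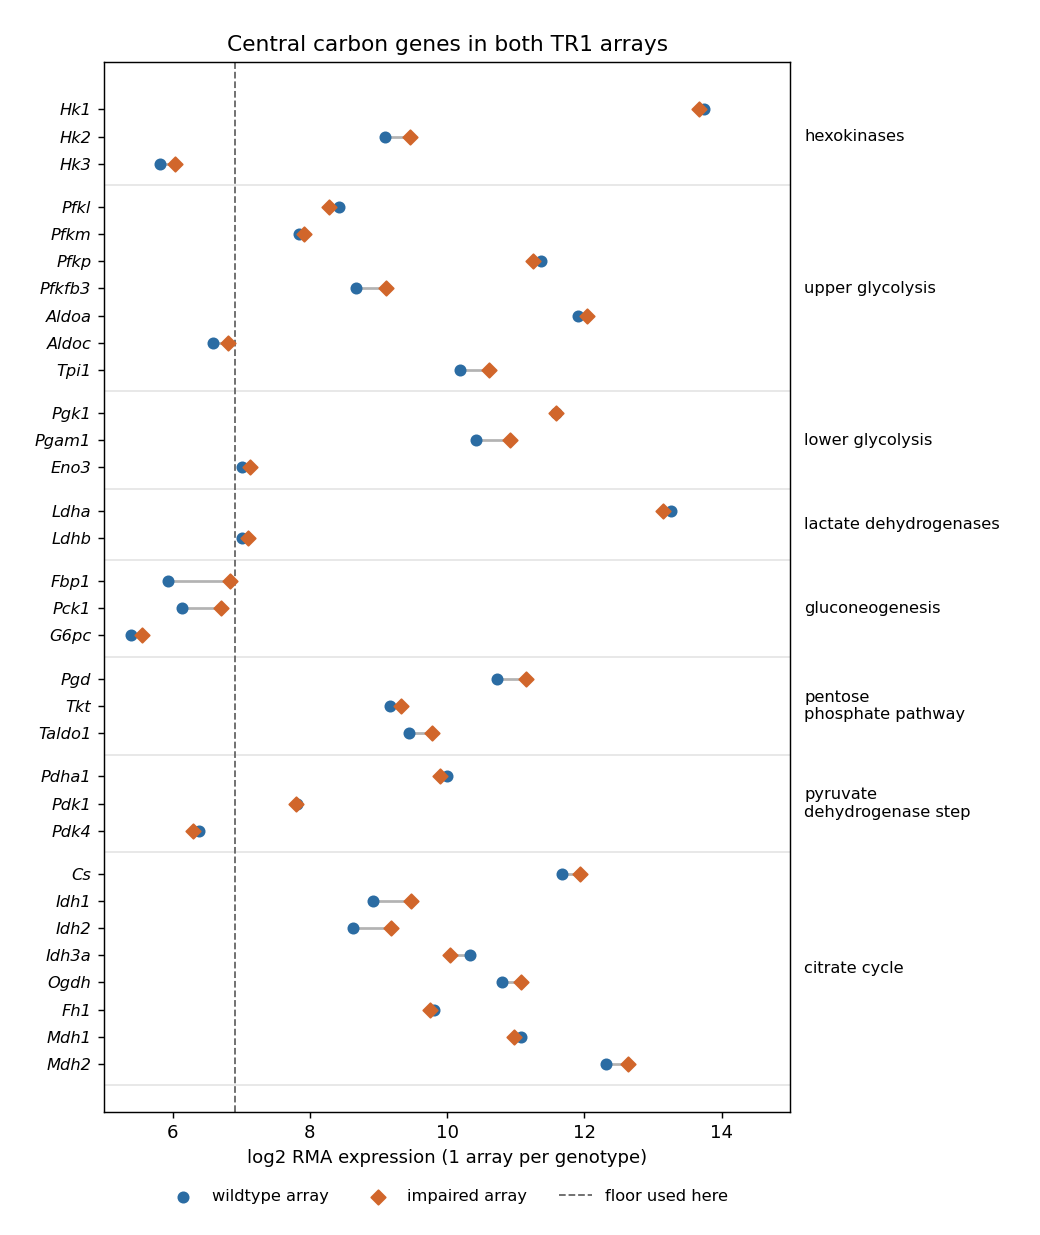
Log2 RMA expression (x axis) of the 32 members with a probe set, grouped by metabolic step, with a circle for the wildtype array, a diamond for the impaired array and a dashed line at the floor of 6.91. The symbols of Pgk1, Pdk1 and Hk1 nearly coincide, while Fbp1, Pck1, Idh1, Idh2 and Pgam1 show the widest gaps.

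**Figure D2:**
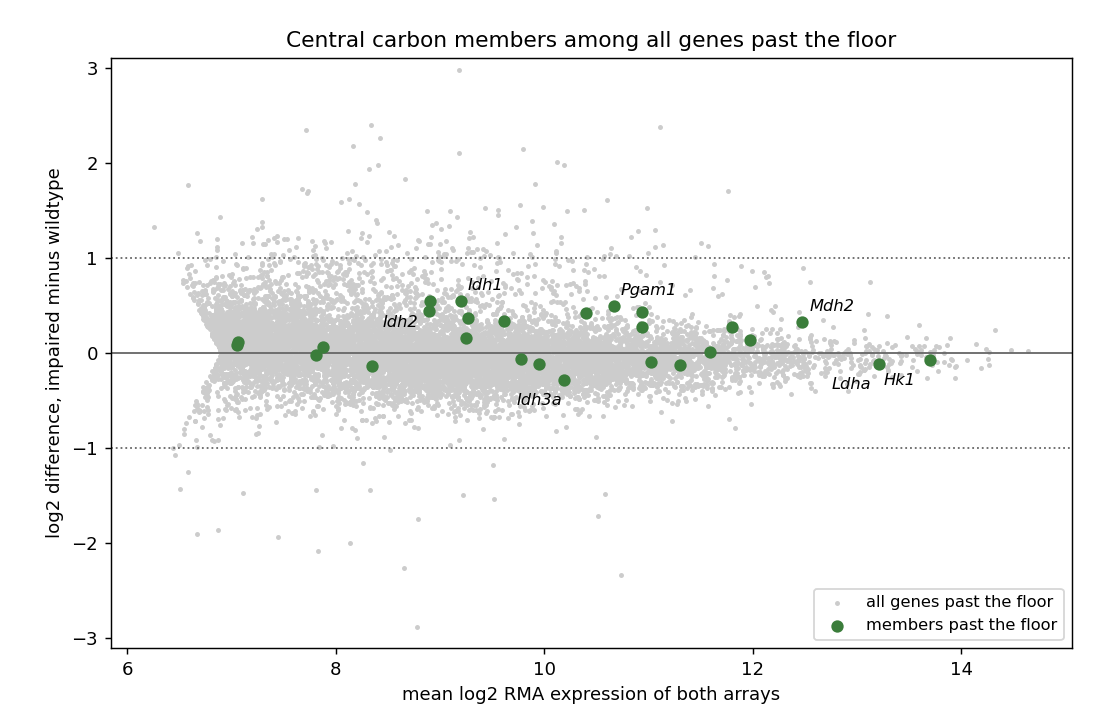
Log2 difference, impaired minus wildtype (y axis), against the mean log2 expression of both arrays (x axis) for all 11125 genes past the floor (grey) and the 26 members past it (green), with dotted lines at 2-fold. All 26 members lie between the dotted lines, and the highest are Idh1 and Idh2, at 0.55 and 0.54.

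T cell markers were bright and nearly equal: the 9 of 12 that had a probe set all passed the floor, with a mean of 12.34 on the wildtype and 12.31 on the impaired array and differences between -0.19 and 0.18. All 10 TR1 markers passed the floor, Il10 and Lag3 among them (both picked with their values known). The median difference was -0.05, with 8 of 10 below 0 and a range from -0.22 to 0.24. Enterocyte markers were present too, and 16 of 16 were brighter in the impaired array, with a mean of 10.19 on the wildtype and 11.13 on the impaired array, a median of 0.92, and Sis (1.77), Slc5a1 (1.22) and Alpi (1.22) highest. Goblet and Paneth markers were brighter in 11 of 11 (median 0.89, means 10.25 and 11.33). Of all 12 neutrophil markers 10 were brighter and 2, Elane and Mpo, dimmer (median 1.41, means 6.94 and 8.18); Camp, Csf3r, Elane and Mpo lay below the floor on both arrays. Over all markers with a probe set, medians were 0.20 for 12 macrophage and monocyte markers, 0.30 for 9 B and plasma cell markers and 0.16 for 10 stromal and endothelial ones. The medians of those past the floor were higher and support nothing. They were 1.87 for neutrophil, 0.58 for macrophage and monocyte, 0.60 for B and plasma cell and 0.28 for stromal and endothelial markers. Some neutrophil, macrophage and stromal markers passed the floor through the impaired array alone. In the B and plasma cell list those past it passed on both arrays, and dim genes dropped out. Ang4 and Itln1 of the goblet and Paneth list, both at 6.88 on the wildtype array, also passed through the impaired array alone. Of 10 pancreatic acinar markers 9 were dimmer (median -1.58). Most enzymes of these pathways are made by many cell types. A bulk array cannot tell fewer cells of a type from less RNA per cell, and the part of other cells in the differences was not tested.

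Glucose is first trapped in the cell by hexokinases, and the isoforms of this step differed by unequal amounts. Hk2, the inducible hexokinase of activated lymphocytes, read 9.09 on the wildtype and 9.46 on the impaired array, a difference of 0.37 (1.29-fold); 18.1% of all genes past the floor differed by at least as much. Hk1, the constitutive hexokinase, was at 13.74 and 13.66, a difference of -0.07 (76.7% of all genes differed by at least as much). That probe set is tied to Hk1 by 1 accession alone, and the same accession ties Hk1 to 15 further probe sets that all carry the name of the ribosomal protein gene Rpl17 as well. Its level therefore cannot be assigned to Hk1 with certainty. The other Hk1 probe set, which lists 2 RefSeq transcripts of the gene, was at 10.75 and 10.69, a difference of -0.06, so the small difference did not depend on which was read. Hk3, an isoform of myeloid cells, stayed below the floor at 5.82 and 6.03.

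The committed step of glycolysis was nearly equal in the catalytic subunits and less so in their regulator. Phosphofructokinase has 3 subunit genes: Pfkp, the platelet type, read 11.37 on the wildtype and 11.24 on the impaired array (-0.12), Pfkl, the liver type, at 8.42 and 8.28 (-0.14), and Pfkm, the muscle type, at 7.84 and 7.91 (0.07). Pfkfb3, whose product makes the fructose 2,6-bisphosphate that switches phosphofructokinase on, was at 8.67 and 9.11, a difference of 0.44 (1.36-fold). This was the highest value of the upper steps, and 12.9% of all genes differed by at least as much.

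Aldolase and triose phosphate isomerase close the upper part of the pathway. Aldoa, the aldolase of most tissues, read 11.90 on the wildtype and 12.04 on the impaired array (0.14), and Aldoc, the brain type, was below the floor at 6.59 and 6.80. Tpi1, which interconverts the triose phosphates, was at 10.19 and 10.62, a difference of 0.43 (1.34-fold). Of the 6 upper members past the floor 4 were above 0, and their median was 0.10.

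Neighbouring steps of lower glycolysis had unequal differences. Pgk1, phosphoglycerate kinase, read 11.58 on the wildtype and 11.59 on the impaired array, a difference of 0.01. Pgam1, the mutase that acts next, was at 10.42 and 10.91, a difference of 0.49 (1.41-fold), which 10.3% of all genes reached or passed. Eno3, the muscle enolase, was close to the floor at 7.005 and 7.126 (0.12). The sequences printed above show hypoxia cores before both Pgk1 and Pgam1, whose differences were 0.01 and 0.49.

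Lactate dehydrogenase, which turns pyruvate into lactate, was near 0 in both subunits. Ldha, the subunit of glycolytic cells, read 13.27 on the wildtype and 13.15 on the impaired array (-0.12). Ldhb, the subunit of oxidative tissues, was just above the floor at 7.02 and 7.10 (0.08); its second probe set was at 6.61 and 6.59 (-0.02).

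The 3 gluconeogenic members were all below the floor on both arrays and all higher in the impaired one. Fbp1, fructose 1,6-bisphosphatase, read 5.93 on the wildtype and 6.83 on the impaired array, a difference of 0.90 (1.87-fold) and the highest of all 32 members. Pck1, the cytosolic PEP carboxykinase, was at 6.14 and 6.71 (0.57), and G6pc, the glucose-6-phosphatase of liver, kidney and gut, at 5.39 and 5.56 (0.17). Without a floor Fbp1 alone of the 32 members passed 1.5-fold, where 5.38% of all 19937 genes did. The upper values of Fbp1 and Aldoc, 6.83 and 6.80, lay just under the floor, and those of Ldhb and Eno3, 7.10 and 7.13, just over it. RMA compresses differences at low signal, so the sizes of these differences are uncertain. With 32 added on the linear scale that of Fbp1 was 0.65. Such an offset always shrinks differences of dim genes, so 0.65 is not a corrected size. Enterocytes make all 3 of these enzymes, and their markers were brighter in the impaired array (median 0.92); their part in this result was not tested.

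The 3 pentose phosphate members with a probe set were all brighter in the impaired array. Pgd, 6-phosphogluconate dehydrogenase, which yields NADPH, read 10.73 on the wildtype and 11.15 on the impaired array, a difference of 0.43 (1.34-fold; 13.9% of all genes differed by at least as much). Taldo1, transaldolase, was at 9.44 and 9.78 (0.34), and Tkt, transketolase, at 9.16 and 9.33 (0.16); both shuffle carbon between sugar phosphates. Their median was 0.34. Other genes of the pathway were divided, with 3 of 6 above 0 and a median of -0.08. H6pd, the hexose-6-phosphate dehydrogenase of the endoplasmic reticulum, was at 8.30 and 8.81 (0.51). Prps1 and Prps2, which make the ribose donor of nucleotide synthesis, were lower in the impaired array, at 9.98 and 9.62 (-0.37) and at 10.70 and 10.37 (-0.32).

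Entry of pyruvate into the citrate cycle was close to equal in its members. Pdha1, a catalytic subunit of pyruvate dehydrogenase, read 10.001 on the wildtype and 9.890 on the impaired array (-0.11). Pdk1, a kinase that switches the complex off and a known HIF-1 target, was at 7.82 and 7.80 (-0.02), and Pdk4, the kinase of fasting, was below the floor at 6.39 and 6.30. Among 9 other genes of this step the median was -0.03, with 4 above 0. Pdk2, the most widely expressed kinase of the family, was an exception at 7.34 and 8.28 (0.94), while Pdk3, another of them, was at 10.11 and 9.81 (-0.30). Mpc1, a subunit of the mitochondrial pyruvate carrier, differed by 0.25.

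The highest differences of the members past the floor were those of Idh1 and Idh2, which were grouped here with the citrate cycle. Mdh2, the next highest of that group, differed by 0.33, less than Pgam1 at 0.49. Idh1, the cytosolic isocitrate dehydrogenase that makes NADPH, read 8.93 on the wildtype and 9.47 on the impaired array, a difference of 0.55 (1.46-fold). Idh2, its mitochondrial NADPH-making counterpart, was at 8.63 and 9.18, a difference of 0.54 (1.46-fold). Of all genes past the floor 8.40% differed by at least as much as Idh1, and 8.55% by at least as much as Idh2.

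The NAD-linked isocitrate dehydrogenase, which drives the cycle itself, lay near or below 0 in its subunits. Idh3a, its catalytic subunit, read 10.32 on the wildtype and 10.05 on the impaired array, a difference of -0.28 and the lowest of all members. Chosen after their values were seen, Idh3b differed by -0.09 and Idh3g by 0.04, which are its other subunits. Idh1 and Idh2 thus lay 0.83 and 0.82 above Idh3a on the log2 scale, a gap between differences that was not tested.

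The remaining members of the cycle were split between those steps that were brighter and those that were level. Mdh2, mitochondrial malate dehydrogenase, read 12.31 on the wildtype and 12.64 on the impaired array (0.33), while Mdh1, the cytosolic form, was at 11.07 and 10.97 (-0.10). Ogdh, a subunit of the 2-oxoglutarate dehydrogenase complex, was at 10.80 and 11.08 (0.28), and Cs, citrate synthase, at 11.67 and 11.94 (0.27). Fh1, fumarase, was at 9.81 and 9.75, a difference of -0.06 that became 0.00 when a trend with brightness was removed. Of the 8 members 5 were above 0, with a median of 0.27. The 16 other genes of the cycle past the floor had a median of 0.02, with 9 above 0 and 6 below; Sucla2 and Suclg2, the ATP and GTP forms of the succinyl-CoA ligase subunit, differed by -0.35 and 0.31, and Slc25a1, the citrate carrier, by 0.28.

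Outside the members, the 4 genes past 1.5-fold among other glycolytic enzymes and transporters are given here, with counterparts of the same step picked after the values were known. Hkdc1, a hexokinase-like gene of epithelia, read 7.02 on the wildtype and 8.10 on the impaired array (1.08), and Pklr, the pyruvate kinase of liver and red cells, at 8.23 and 9.05 (0.83). Pkm, the pyruvate kinase of T cells and most tissues, picked out after the values were known, differed by 0.03. Slc5a1, the sodium-glucose cotransporter, which also stands among the enterocyte markers, was at 9.55 and 10.77 (1.22), and Slc2a2, the basolateral glucose transporter GLUT2, at 6.91 and 8.11 (1.20). On the wildtype array Slc2a2 was level with the floor of 6.91. Slc2a1 and Slc2a3, the glucose transporters of lymphocytes, chosen after their values were seen, differed by 0.02 and -0.09. G6pc3, the widely expressed glucose-6-phosphatase, also picked with its value known, differed by 0.17, the same as the member G6pc of liver and gut. Slc2a6, a further transporter of this family, differed by 0.47, and Adpgk, an ADP-dependent glucokinase, by -0.32.

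Genes of fructose and galactose handling had the highest median of the 10 lists of other pathway genes, 0.60 over 6 genes, all above 0. Slc2a5, the fructose transporter GLUT5, read 6.99 on the wildtype and 7.95 on the impaired array (0.96). Khk, fructokinase, was at 7.53 and 8.29 (0.76), and Tkfc, which phosphorylates the glyceraldehyde made from fructose, at 8.74 and 9.68 (0.94). These 3 genes of fructose use passed 1.5-fold, while the galactose genes Galm and Galt differed by 0.45 and 0.01 and Glyctk by 0.11 (all 3 chosen after their values were seen). Fbp2, the second fructose bisphosphatase, was at 7.58 and 8.44 (0.85), beside 0.90 for the member Fbp1. Over all 10 lists 14 of 103 genes past the floor were at least 1.5-fold brighter in the impaired array and 0 as much dimmer. Of all genes 5.89% were brighter and 1.5% dimmer by this size. The lists were chosen with earlier results of these data known, so nothing particular to these pathways is read from the counts. Among the 14, Ppargc1a passed the floor through the impaired array alone. Enterocyte markers, which share Slc5a1 with these lists, were brighter in 16 of 16 in the same array, and their part in these values was not tested.

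**Figure D3:**
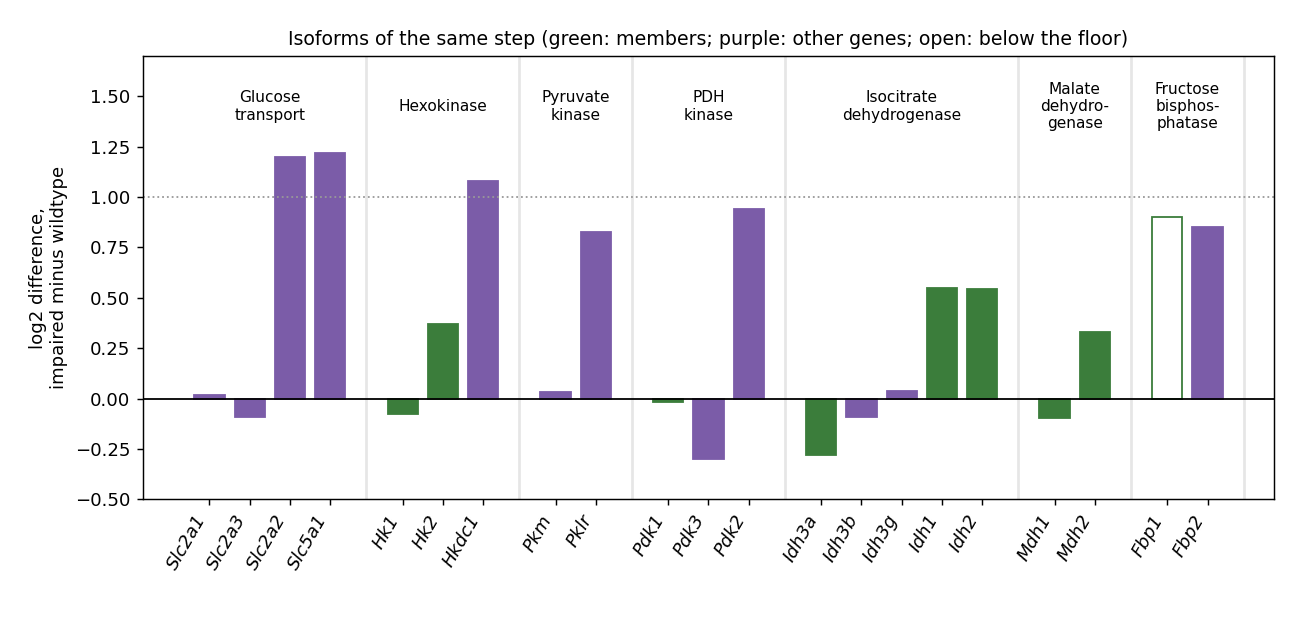
Log2 difference, impaired minus wildtype (y axis), of isoforms that serve the same step (x axis), as bars of 1 value each with no error; the dotted line is 2-fold. Slc2a2, Slc5a1, Hkdc1, Pklr and Pdk2 lie between 0.83 and 1.22, while Slc2a1, Slc2a3, Hk1, Pkm and Pdk1 lie between -0.09 and 0.03. Hk2 and Pdk3, drawn in the same steps, lie outside both ranges at 0.37 and -0.30. The steps and genes drawn were picked with their values known.

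Regulators of these pathways were divided evenly, 10 above and 10 below 0 of 21, with a median of 0.00. Hnf4a, the transcription factor of gut and liver epithelium that drives gluconeogenic genes, read 9.04 on the wildtype and 10.06 on the impaired array (1.02). Mlxipl, which encodes the sugar sensor ChREBP, was at 7.63 and 8.42 (0.79), and Ppargc1a, a coactivator of mitochondrial and gluconeogenic genes, at 6.41 and 7.12 (0.72). These 3 were the only ones past 1.5-fold. Ppargc1a, which has 2 probe sets, passed the floor through the impaired array alone, so its difference supports nothing. With the mean or the lowest probe set of each gene, 20 regulators passed the floor. Chosen after their values were seen, Hif1a was at 13.15 and 12.98 (-0.17), Myc at 10.81 and 11.23 (0.41), Mtor at 8.84 on both arrays and Irf4, a transcription factor of activated T cells, at 10.25 and 10.53 (0.28).

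**Figure D4:**
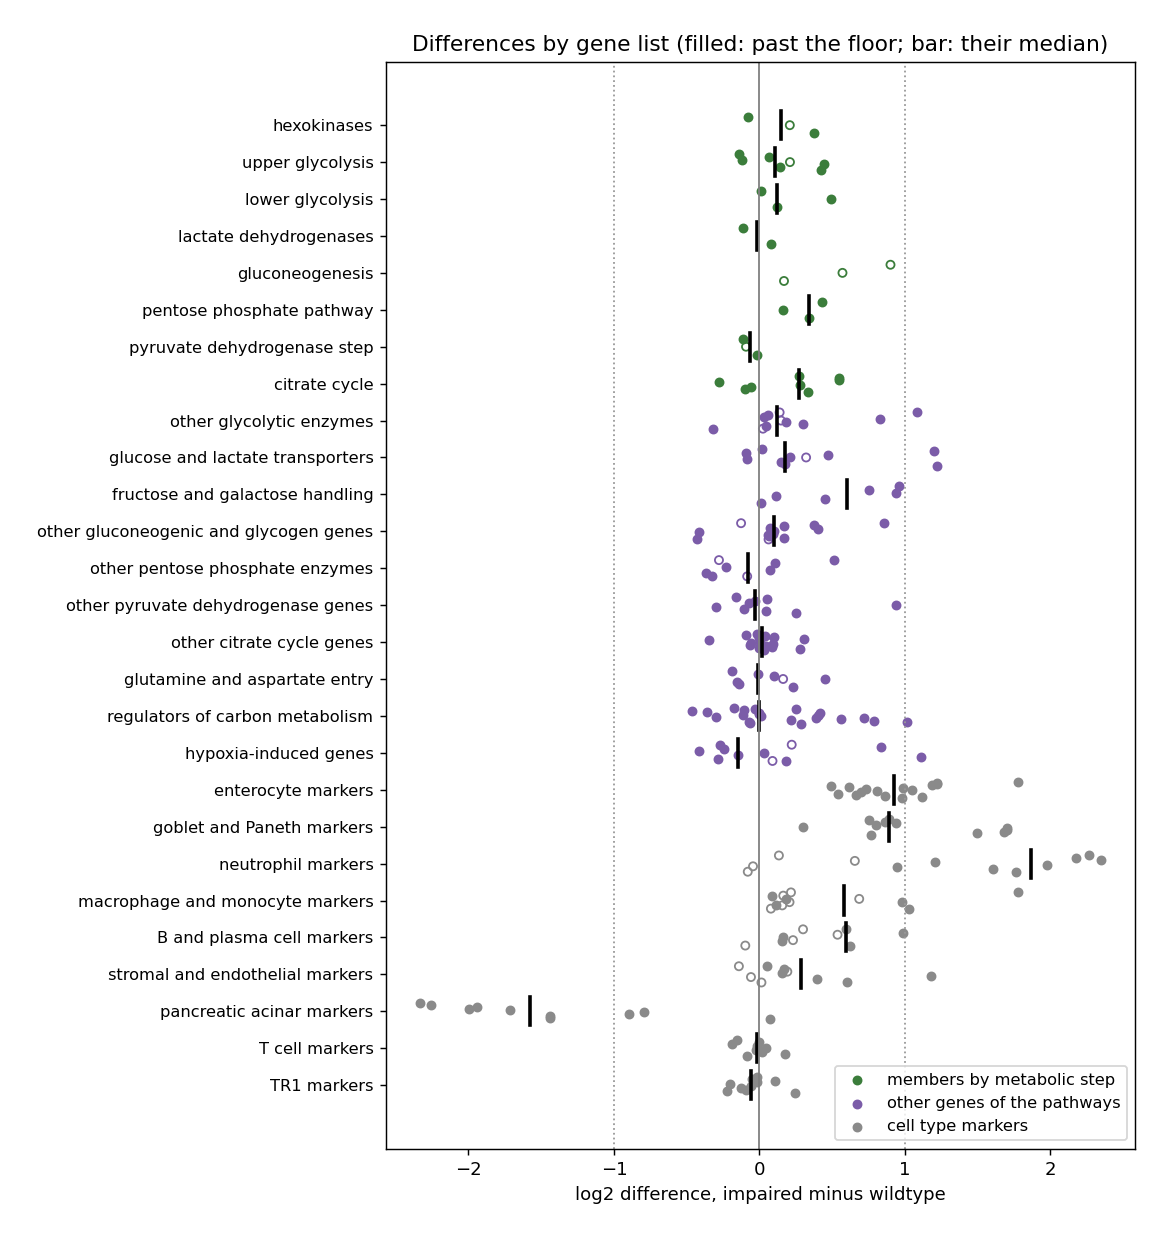
Log2 difference, impaired minus wildtype (x axis), of each gene of the 8 member groups (green), the 10 other pathway lists (purple) and the 9 marker lists (grey), with filled points past the floor, open points below it, bars at the median of the filled points and dotted lines at 2-fold. The medians of the member groups past the floor lie between -0.06 and 0.34, that of enterocyte markers at 0.92 and that of T cell markers at -0.02.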

How the data were processed

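RNA of 2 samples was measured on Affymetrix arrays, and the deposited table holds log2 values that the authors made with affy and RMA, per the submitters' processing notes; RMA corrects background, equalises the probe distributions of the arrays and summarises probes into probe sets. For that step a version, build or annotation is not given in the sources used here. Medians were 6.89 and 6.92. RMA compresses differences of dim probe sets. No scanner file was used.

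Of 34760 probe sets, 21640 had 1 gene symbol in GEO's platform annotation, 1321 had several and 11799 were not listed. A gene was represented by its single-symbol probe set with the highest mean of both arrays. The floor was 6.91 on the brighter array. With 1 array per group there is no test; genes were counted by a 2-fold and a 1.5-fold rule beside the share of all genes. The number of arrays limits the precision.

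Members and gene lists were chosen with earlier results of these data known. Named were all members, up to 3 genes with the largest absolute difference per other list, and any pathway gene past 1.5-fold. Neutrophil markers that were dimmer or below the floor were named too. Any further gene carries a remark that it was picked with its value known. The programs were tested on simulated data. Promoters came from RefSeq on GRCm38.p6, matched by symbol for 34 of 35 members. The work used statsmodels 0.14.6 and pandas 2.3.3 with numpy 2.4.6 in Python 3.11.15.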

Additional observations from a re-analysis of the deposited data

How the results depend on the processing

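The alternatives were loess centring, median centring, an offset of 32 on the linear scale, the mean or the lowest probe set of a gene, dropping the floor, raising it to 8.86 (the 75th percentile over probe sets) and counting from 1.5-fold. The count of members past the fold rule was 0 under each of them. Medians of the members and their groups moved by at most 0.1 without a change of sign, except under the stricter floor, where that of all members was 0.27, that of upper glycolysis 0.28 over 4 genes and that of lower glycolysis 0.25 over 2, because dim members dropped out. Of 32 single differences, that of Fh1 changed sign under loess centring and that of Ldhb with its lowest probe set; the other alternatives that recompute single genes changed none, and the largest shift was that of Fbp1 with the offset, to 0.65. With the offset 0 of the other glycolytic enzymes, 0 regulators and 0 hypoxia-induced genes passed 2-fold, where 1 of each had (Hkdc1, Hnf4a and Car9). Medians of other pathway lists moved under the stricter floor. They were 0.43 for other glycolytic enzymes (2 genes) and 0.02 for glucose and lactate transporters (5 genes). Fructose and galactose handling was at 0.45 (3 genes) and other pentose phosphate enzymes at -0.28 (4 genes). There 1 transporter, 0 other glycolytic enzymes and 0 hypoxia-induced genes passed 2-fold. The median of other pyruvate dehydrogenase genes, -0.03, turned to 0.00 with loess centring. No paired analysis was possible because each group has 1 array, and for the same reason no replicate could be left out.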

Other observations

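Genes induced by hypoxia, beside the glycolytic members that share this control, were divided, with 4 of 9 past the floor above 0 and a median of -0.15, which turned to 0.03 without a floor (11 genes) and to 0.03 with the stricter floor (5 genes). With the mean probe set of each gene the median was -0.05 over 8 genes, and with the lowest -0.07 over 8. Car9, a carbonic anhydrase, read 7.07 on the wildtype and 8.18 on the impaired array (1.11), and Vegfa, the endothelial growth factor, at 8.33 and 9.16 (0.83). P4ha1, a collagen prolyl hydroxylase, went the other way at 8.69 and 8.28 (-0.41). Chosen after their values were seen, Egln1 and Egln3, the prolyl hydroxylases that mark HIF for degradation, differed by -0.47 and -0.36. Bnip3, a mitophagy receptor with 2 probe sets and also chosen in this way, differed by -0.27. Epithelial cells also make Car9 and Vegfa, and enterocyte markers were brighter in the same array (16 of 16, median 0.92); their part was not tested.

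Genes of glycogen synthesis were divided. Ugp2, which makes UDP-glucose, read 9.57 on the impaired array, a difference of -0.43. Gbe1, the branching enzyme, read 7.96 on the wildtype and 7.55 on the impaired array (-0.41). Chosen after their values were seen, Gys1, glycogen synthase, differed by 0.10, and the phosphoglucomutases Pgm1 and Pgm2 by 0.06 and 0.17. The list of other gluconeogenic and glycogen genes had 10 of 12 above 0 and a median of 0.10. Genes of glutamine and aspartate entry had a median of -0.01 over 7. Gpt, an alanine transaminase, differed by 0.45, Slc38a2, an amino acid transporter, by 0.23 and Glud1, glutamate dehydrogenase, by -0.19. Gpt read 6.83 on the wildtype array and passed the floor through the impaired array alone. The sign of the median turned with loess centring (0.04), median centring (0.00), the lowest probe set (0.09) and no floor (0.05).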
